A study of Mus musculus with 24 samples.

Results

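The genes described here are 10 genes of the Notch pathway, out of 21627 protein-coding genes on the 19 autosomes and the X chromosome of the mouse. They are the receptors Notch1, Notch2 and Notch3, the ligands Jag1, Jag2, Dll1 and Dll4, the nuclear factor Rbpj, and the pathway targets Hes1 and Dtx1. For each gene, every peak of the 24 deposited lists that overlapped the gene or the 10 kb on each side of it was taken, in mm10 coordinates. The members were selected on their H3K4me3 peaks in WT and KO lists, so the H3K4me3 difference between genotypes is described below and not tested.

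Group 3 innate lymphoid cells (ILC3s), tissue-resident lymphocytes that make interleukin-22, were sorted from the small intestinal lamina propria of mice as 3 subsets, named CCR6+, NKp46+ and DN. CUT&Tag, in which an antibody brings a transposase to the chromatin it binds, was run on 100000 cells per library with an antibody to CFP1 or to trimethylated lysine 4 of histone H3 (H3K4me3). All mice carried Cxxc1flox/flox alleles. Those without Cre are called WT, and those that also carried a Cre are called KO. Each of the 12 groups of genotype, subset and antibody held 2 libraries. Age is labelled as 6 to 8 weeks, although the protocols also name aged mice and a culture medium. Whether replicates came from separate animals is not stated, so the p-values below measure only the spread between these libraries, which may be technical.

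Notch receptors are membrane proteins that are cleaved when a Jagged or Delta-like ligand on a neighbouring cell binds them. The freed intracellular part enters the nucleus and joins the DNA-binding factor RBPJ, which then activates targets such as Hes1, a transcriptional repressor, and Dtx1, an E3 ubiquitin ligase. Notch signalling is known to promote the development of the NKp46+ ILC3 subset. CFP1, the product of Cxxc1, binds unmethylated CG dinucleotides and belongs to the SET1 complexes, which trimethylate lysine 4 of histone H3 at active gene starts.

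The promoters of 4 genes on which the results turn are printed first. Jag2 and Dll4 are the ligands with a start peak of H3K4me3 mainly in KO lists, and Jag1 and Rbpj are the 2 genes with a CFP1 peak in every WT list. Each line is the 250 b before the start site in RefSeq for GRCm38.p6, written 5′ to 3′ on the gene's strand, with every CG dinucleotide in capitals. The Jag2 window is chr12:112929496-112929745 on the minus strand, the Dll4 window chr2:119325534-119325783 on the plus strand, the Jag1 window chr2:137116521-137116770 on the minus strand, and the Rbpj window chr5:53590096-53590345 on the plus strand.
Jag2: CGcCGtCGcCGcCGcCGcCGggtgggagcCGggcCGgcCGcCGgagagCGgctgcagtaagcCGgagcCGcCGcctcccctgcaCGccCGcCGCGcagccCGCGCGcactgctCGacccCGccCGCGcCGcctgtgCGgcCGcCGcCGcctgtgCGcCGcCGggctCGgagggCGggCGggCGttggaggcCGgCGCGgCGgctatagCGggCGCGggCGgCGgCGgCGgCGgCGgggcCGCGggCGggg
Dll4: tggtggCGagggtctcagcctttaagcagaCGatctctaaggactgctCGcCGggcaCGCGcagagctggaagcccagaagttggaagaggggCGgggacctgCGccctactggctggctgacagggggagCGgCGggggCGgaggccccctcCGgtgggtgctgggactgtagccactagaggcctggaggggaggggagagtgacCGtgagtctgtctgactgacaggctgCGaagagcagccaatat
Jag1: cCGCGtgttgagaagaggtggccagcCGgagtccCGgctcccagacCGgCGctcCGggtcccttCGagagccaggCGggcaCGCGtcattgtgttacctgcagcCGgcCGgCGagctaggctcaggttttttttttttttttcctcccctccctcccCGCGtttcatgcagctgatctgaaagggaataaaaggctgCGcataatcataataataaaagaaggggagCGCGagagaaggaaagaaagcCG
Rbpj: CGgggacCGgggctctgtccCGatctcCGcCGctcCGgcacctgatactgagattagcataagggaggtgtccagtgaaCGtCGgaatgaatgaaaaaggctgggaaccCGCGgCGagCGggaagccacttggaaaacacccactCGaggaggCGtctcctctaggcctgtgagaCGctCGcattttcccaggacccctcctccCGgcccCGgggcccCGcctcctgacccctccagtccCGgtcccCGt
Jag2 had 54 CG dinucleotides in these 250 b, against 14 for Dll4, 20 for Jag1 and 21 for Rbpj. Over the 300 b window from 250 b before to 50 b after the start, Jag2 had 63 CG and a GC content of 86.0%. Only 4 of 32851 RefSeq promoter windows had more CG, and the median window had 7. The same count was 41 for Notch2, the next highest of these genes, and 15 to 28 for the other windows. Hes1 has no entry in the promoter table. GTGGGAA, the core of the site RBPJ binds, was searched on both strands (TTCCCAC on the other) and occurred in none of the 11 windows of the 9 genes, against 6.4% of all promoter windows.

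**Figure D1:**
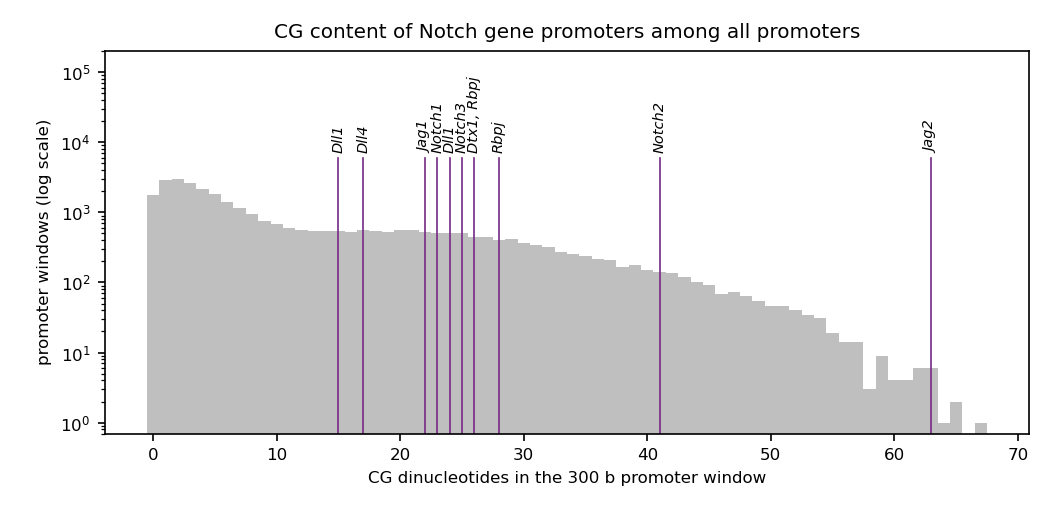
Number of RefSeq promoter windows of 300 b (grey bars, log scale) by their count of CG dinucleotides, with vertical lines at the windows of the Notch genes. Jag2 lies at 63 CG in the far right tail, Notch2 at 41, and all other Notch windows between 15 and 28.

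The lists carry no read counts, so depth is unknown and a gene without a peak is one at which none was listed. There were 714 to 8881 peaks in a CFP1 list and 11794 to 18127 in an H3K4me3 list. Among H3K4me3 lists, 4 KO lists (16422 to 18127 peaks) were longer than every WT list (12838 to 15397), and KO CCR6+ replicate 1 and KO DN replicate 1 were the shortest. Among CFP1 lists, the 2 long KO lists were replicate 2 of NKp46+ (4891 peaks) and of DN (8881), against 714 to 1312 in the other KO lists. Of 9 ILC3 marker genes, 7 or 8 had an H3K4me3 peak at the start in WT lists and 5 to 7 in KO lists. Id2, Gata3, Kit, Tcf7 and Ahr had one in all 12 lists and Il22 in none. Il23r had one in 6 WT and 1 KO lists, and the subset marker Ccr6 in 4 and 0, with none in the 2 KO lists labelled CCR6+. The WT lists were the 2 of CCR6+, 1 of NKp46+ and 1 of DN. In the gene plus 10 kb, Ccr6 had a peak in 6 WT lists and in 1 KO list, of CCR6+. Of the other subset markers, Nrp1, Cd4, Tbx21 and Ifng had a start peak in all 12 lists, and Klrb1c had a start peak in 3 WT and 1 KO lists. Ncr1, which encodes NKp46, had one in both NKp46+ lists of each genotype and also in 1 WT CCR6+ and 1 WT DN list. The 4 B cell markers had none, T cell markers 2 to 5 of 5 in WT and 0 to 5 of 5 in KO lists, myeloid markers 0 to 1 of 4 and 0 to 2 of 4, and epithelial and stromal or endothelial markers 1 to 2 of 4 in every list of either genotype, with Vil1, Krt20, Pdgfra and Cdh5 at 0 in all lists. Epcam (6 of 6 lists in each genotype), Cd14 (5 of 6 in each), Col1a1 (3 WT and 6 KO) and Pecam1 (4 and 1) did have peaks, and the part of other cell types in the results below was not tested.

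H3K4me3 was listed at most of the Notch genes in every subset and genotype. Within 1 kb of a start site (both gene ends for Hes1, whose strand is not given), 7.17 ± 0.41 (SD, n = 6) of the 10 genes had a peak in WT lists and 8.83 ± 0.98 (SD, n = 6) in KO lists. WT lists held 7 or 8 of the genes there and KO lists 7 to 10. Over all protein-coding genes the corresponding shares were 50.0% and 51.3%. Notch1, Notch2, Jag1, Dll1, Rbpj and Dtx1 had a start peak in all 12 lists, as did 9598 of all genes (44.4%), and Hes1 in 11, missing only from KO DN replicate 1. Jag2, Dll4 and Notch3 are the other 3, and the whole difference in count between genotypes comes from these 3 and Hes1.

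**Figure D2:**
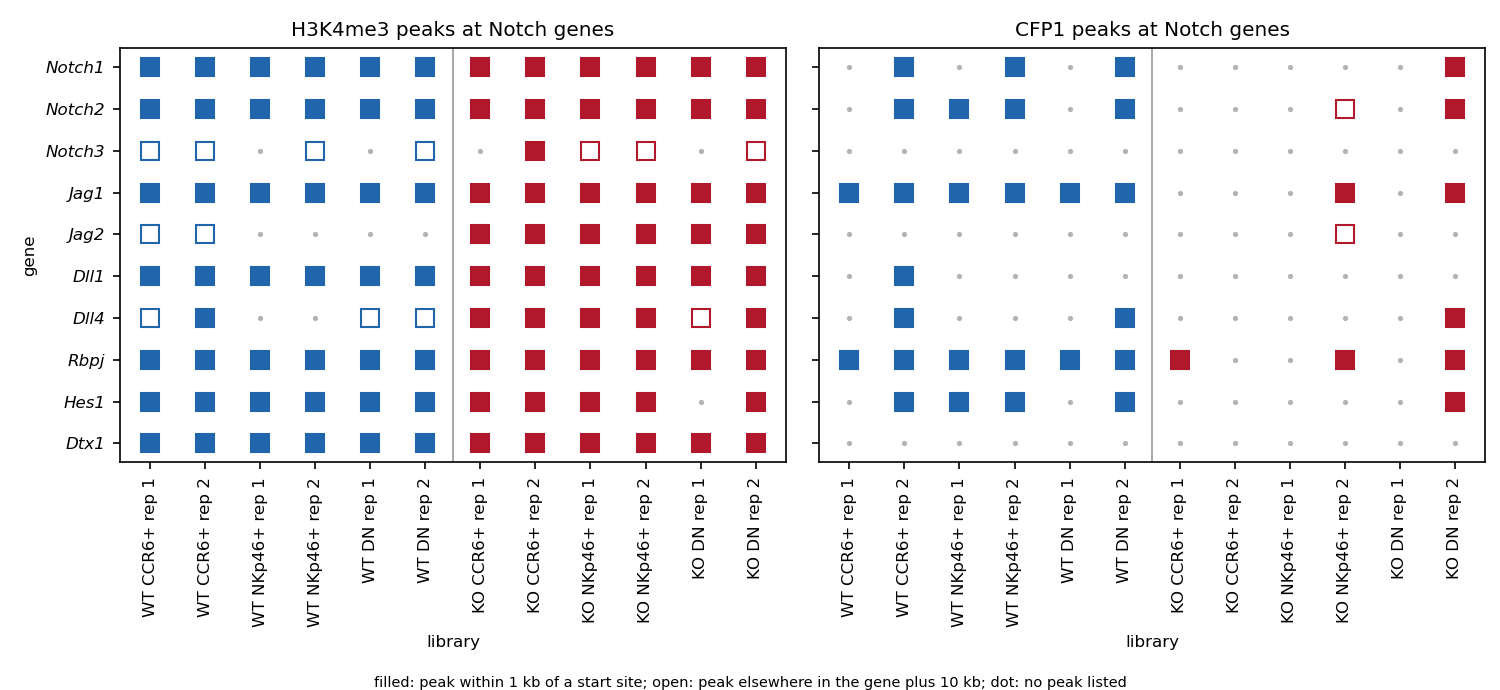
Presence of H3K4me3 (left) and CFP1 (right) peaks at the 10 genes (rows) in each of 12 libraries (columns, WT blue, KO red). Filled squares mark a peak within 1 kb of a start site (either gene end for Hes1). Open squares mark a peak only elsewhere in the gene plus 10 kb, and dots no listed peak. H3K4me3 fills 7 rows almost completely, and the Jag2 start is filled only in KO columns. CFP1 squares lie mostly in WT and replicate 2 columns.

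Among the receptors, Notch1, which lymphocyte progenitors use for T lineage choice, had a broad H3K4me3 peak over its start (chr2:26501989-26504447 merged over lists; gene on the minus strand, chr2:26457902-26503822). This peak was 1927 to 2387 b wide in WT lists (median 2227) and 1769 to 2408 b in KO lists (median 1978), so the ranges overlapped. It also reaches the divergent lncRNA Gm35978. Inside the gene, an H3K4me3 peak 19897 to 20657 b past the start was listed in 5 WT and 5 KO libraries, and a weaker one 10126 to 11115 b past it in 4 and 3.

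Notch2, a receptor used by marginal zone B cells and gut dendritic cells, had the highest-ranked peaks of the 10 genes. Ranks here use the fold enrichment given by the authors for each peak, turned into a percentile among the peaks of the same list. The Notch2 start peak (chr3:98013141-98015002, plus strand) stood at percentiles 67.4 to 90.9 over the 12 lists. The start peak of Notch1, by comparison, stood at 31.5 to 47.4. A second Notch2 peak inside the gene, 13461 to 14623 b past the start, was listed in 4 WT and 4 KO libraries.

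Notch3, a receptor best known from vascular smooth muscle, had no start peak in any WT list and 1 in KO, in CCR6+ replicate 2, where it was 603 b wide at percentile 9.7. Its only other H3K4me3 peak (chr17:32113317-32114586) lay beyond the far end of the gene inside the lncRNA Gm38585 and was listed in 4 WT and 4 KO libraries. No CFP1 peak was listed at Notch3 in any library.

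The ligands differed most among themselves. Jag2, one of the 2 Jagged ligands (chr12:112907803-112929812, minus strand, start site at 112929495), had an H3K4me3 start peak in 0 of 6 WT and 6 of 6 KO lists. The bases covered within 1 kb of its start were 0 in every WT list. In KO lists they were 262 in CCR6+ replicate 1, 1403 in CCR6+ replicate 2, 965 in NKp46+ replicate 1, 1386 in NKp46+ replicate 2, 319 in DN replicate 1 and 1396 in DN replicate 2. The genotypes did not overlap, and the 2 lowest KO values came from the 2 shortest lists. Of the 12265 genes with a start peak in any list, 2 (0.0163%) had 0 WT and 6 KO, Jag2 and Dlx1, which encodes a homeobox factor. This split was part of what chose the gene, so nothing is read from it.

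The Jag2 signal was made of 2 separate peaks around the CG-rich window printed above. An upstream peak within −842 to −292 b of the start (chr12:112929787-112930337) was listed in all 6 KO libraries with widths of 262 to 551 b. A downstream peak within +112 to +968 b (chr12:112928527-112929383) was listed in 4 KO libraries, all but the 2 with the shortest lists, with widths of 485 to 853 b. In those 4 lists the gap between the peaks was 403 to 554 b and held the whole 250 b promoter window, so that no H3K4me3 list of the 12 had a peak over these 250 b. The best start peak stood at percentile 51.5, 40.1, 39.3 and 42.5 in these 4 lists (CCR6+ replicate 2, NKp46+ replicate 1 and 2, DN replicate 2) and at 4.8 and 2.3 in CCR6+ replicate 1 and DN replicate 1. In the 2 shortest lists the peak was therefore among the weakest listed.

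Elsewhere at Jag2, WT libraries were not empty. A peak inside the gene, 11272 to 12382 b past the start, was listed in 2 WT libraries (both CCR6+) and 4 KO libraries. Another beyond the far end of the gene, 31228 to 31993 b past the start, was listed in 0 WT and 3 KO libraries. CFP1 was listed at Jag2 in 1 library only, KO NKp46+ replicate 2, at the peak inside the gene and at percentile 2.1 of that list.

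The other ways of counting at the start of Jag2 could only remove peaks or libraries. The WT count of 0 could therefore not rise, and only the KO counts could change. Peaks with a fold enrichment of at least 5 were listed there in 0 WT and 4 KO libraries. With the same number of peaks taken from each list, the strongest 11794 by p-value, the counts were 0 and 5. Without the 2 shortest KO lists it was 0 of 6 WT and 4 of 4 KO. The part of sequencing depth in these counts was not tested.

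The 5 genes with the start pattern most like that of Jag2 over the 12 lists were Dlx1, Smtnl2, Lama5, Tal1 and Entpd2. Likeness was the number of lists with another presence call, then the Pearson correlation of log2(covered bases + 100 b). Dlx1 had the same call in all 12 lists. Smtnl2, Lama5, Tal1 and Entpd2 each had 1 other call, with 0 WT and 5 KO libraries and correlations of 0.95, 0.95, 0.94 and 0.94. These correlations share the lists and their lengths and carry no test.

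Dll4, a Delta-like ligand of thymic epithelium and endothelium (chr2:119325784-119335666, plus strand), had an H3K4me3 start peak in 1 WT and 5 KO lists. The WT list was CCR6+ replicate 2, with a peak 1299 b wide. In KO lists the width was 1178 and 1975 b in CCR6+ replicate 1 and 2, 910 and 1491 b in NKp46+, and 712 b in DN replicate 2, with no peak in DN replicate 1. The WT value lay inside the KO range. These peaks ranked low, at percentiles 4.9 to 26.1, and part of the region belongs to the lncRNA Gm14207. A pattern of 1 or fewer WT and 5 or more KO libraries was found at 36 of 12265 genes (0.294%).

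The Dll4 pattern depended on weak peaks. At a fold enrichment of at least 5 it was 0 WT and 2 KO libraries. With the same number of peaks from each list it was 0 and 1, and the pattern of 1 or fewer WT and 5 or more KO libraries was then found at 46 of 11275 genes (0.408%). A second H3K4me3 peak beyond the far end of the gene, 11744 to 12825 b past the start, was listed in 4 WT and all 6 KO libraries. CFP1 was listed upstream, −1412 to −613 b from the start, in WT CCR6+ replicate 2, WT DN replicate 2 and KO DN replicate 2, at percentiles 35.4, 19.5 and 83.8. The CFP1 peaks of the 2 DN libraries had no H3K4me3 peak on them in DN cells of their own genotype.

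**Figure D3:**
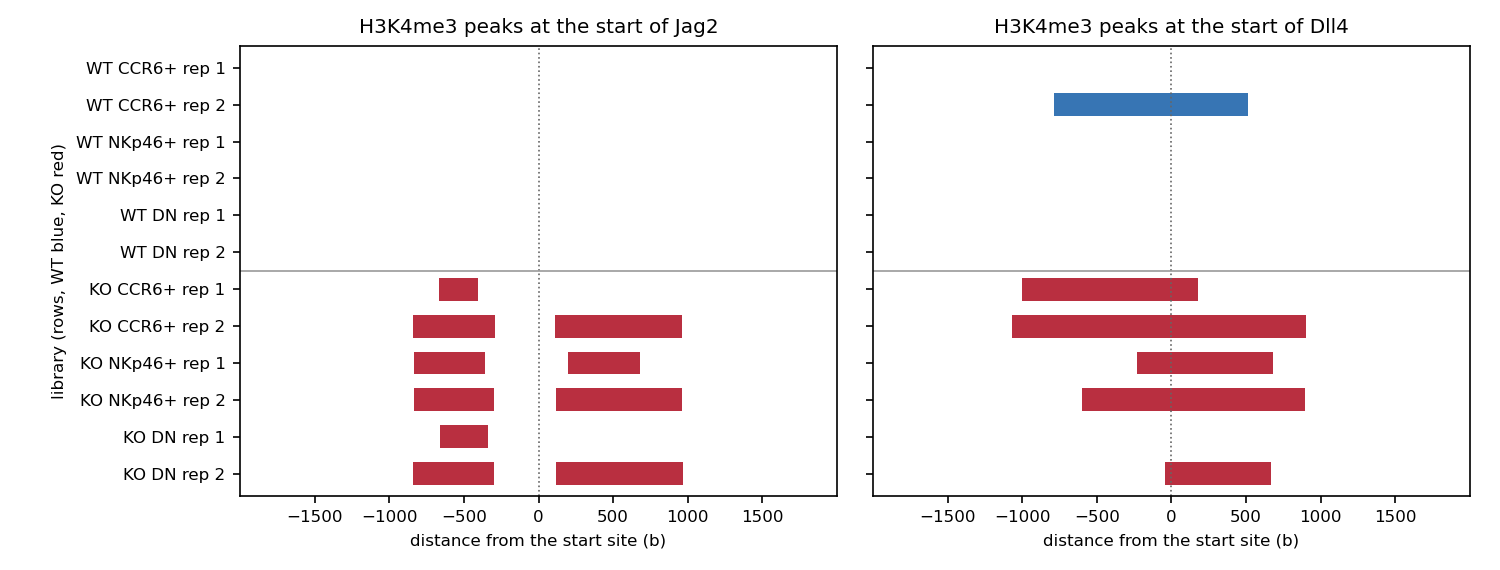
H3K4me3 peaks (bars) around the start sites of Jag2 (left) and Dll4 (right), with distance in bases from the start (dotted line) on the x axis and 1 row per library (WT blue, KO red). Jag2 bars appear in the 6 KO rows only, in a pair that leaves the start uncovered, while Dll4 bars cross the start in 1 WT and 5 KO rows.

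Jag1, the other Jagged ligand (chr2:137081451-137116520, minus strand), had an H3K4me3 start peak in all 12 lists. The start peaks were 1412 to 3238 b wide in WT (median 3210) and 706 to 3221 b in KO (median 2469). WT NKp46+ replicate 1 was the only WT list under 3188 b. In KO, CCR6+ replicate 1 (706 b) and DN replicate 1 (732 b) had only a part upstream of the start, and NKp46+ replicate 1 had 1781 b. The narrow values were all from replicate 1, and the widths of the 2 genotypes overlapped.

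Dll1, a Delta-like ligand (chr17:15367354-15376932, minus strand), also had a start peak in all 12 lists, 1095 to 2885 b wide in WT (median 2379) and 718 to 2372 b in KO (median 2225). CFP1 was listed there in 1 library, WT CCR6+ replicate 2. A CFP1 peak in 1 library is too few to compare.

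Rbpj, the DNA-binding factor through which all Notch receptors act, lies at chr5:53555779-53657445 on the plus strand and has annotated starts at 53590346 and 53590486. Its start peak of H3K4me3 was listed in all 12 libraries. The summed width was 1770 to 2894 b in WT lists (median 2421) and 1725 to 2468 b in KO lists (median 1740). All 6 KO lists and all 6 WT lists shared a block around the start. A further segment more than 600 b downstream of the first start, reaching 1360 to 1534 b past it, was listed in 5 WT libraries (all but NKp46+ replicate 1) and 1 KO library (DN replicate 2). This segment was singled out after its values were seen. A separate H3K4me3 peak within −24550 to −23094 b of the start, inside the annotated gene, was listed in 6 WT and 5 KO libraries.

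Hes1, a target that represses transcription (chr16:30065357-30067796), had start peaks 1016 to 1923 b wide in WT lists (median 1875). In KO lists the width was 489 and 1790 b in CCR6+ replicate 1 and 2, 751 and 1461 b in NKp46+ and 0 and 1906 b in DN. Replicate 1 was the narrower of each KO pair, and the KO range overlapped the WT range.

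Dtx1, the other target (chr5:120680203-120711867, minus strand), had a start peak in all 12 lists, 1580 to 2107 b wide in WT (median 1850) and 958 to 2270 b in KO (median 1624). A given library held up to 4 more H3K4me3 peaks inside the gene, and most of these peaks were in replicate 2. Each of their sites was listed in 2 to 6 libraries. No CFP1 peak was listed at Dtx1.

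**Figure D4:**
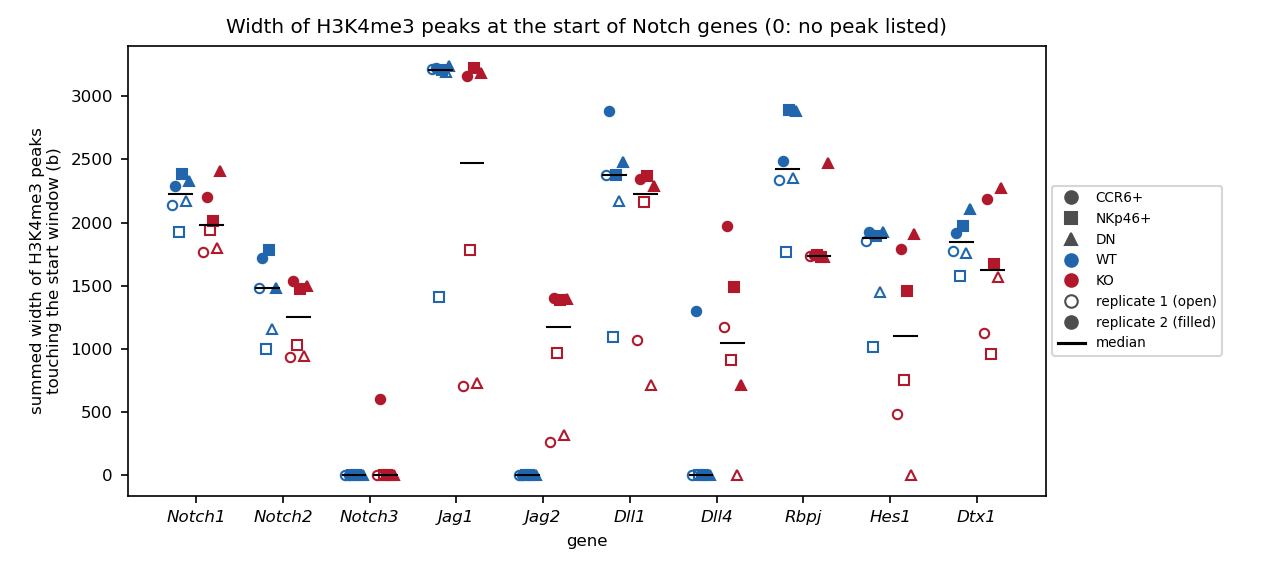
Summed width in bases of the H3K4me3 peaks that touch the window within 1 kb of a start site, for each gene and library (WT blue, KO red; marker shape gives the subset, open markers replicate 1, filled markers replicate 2, black lines medians of 6 libraries; 0 means no peak listed). Jag2 is at 0 in all WT libraries and at 262 to 1403 b in KO; at Jag1 and Hes1 the narrow values are open markers.

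The second question was where CFP1 sat at these genes and whether it was listed less often in KO cells. In the gene plus 10 kb, 4.33 ± 2.07 (SD, n = 6) of the 10 genes had a CFP1 peak in WT lists and 1.83 ± 2.56 (SD, n = 6) in KO lists. WT lists ranged from 2 to 7 genes and KO lists from 0 to 6, so they overlapped. Over all protein-coding genes, 31.7% had a CFP1 peak in a WT list and 15.0% in a KO list on average, so the KO share was lower there too. Replicate number went with the count as well. The mean was 2.67 genes in WT replicate 1 and 6.0 in WT replicate 2, and 0.33 and 3.33 in KO, with n = 3 lists each. The shares of all genes were 30.4% and 33.04% in WT and 7.42% and 22.5% in KO, in the same order. Within each replicate number the WT mean was the higher.

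Of the Notch genes, Jag1 and Rbpj had CFP1 listed in the most libraries. The CFP1 peak of Jag1 lay within −1044 to −212 b of the start and was listed in 6 of 6 WT and 2 of 6 KO libraries, NKp46+ and DN of replicate 2. Its percentile was 24.4 to 79.8 in WT lists and 46.6 and 54.7 in the 2 KO lists. It lay inside the H3K4me3 site of Jag1 as merged over the 12 lists, over the same upstream part to which H3K4me3 was limited in KO CCR6+ replicate 1 and KO DN replicate 1.

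At Rbpj, CFP1 peaks within −1428 to +295 b of the first start were listed in 6 of 6 WT and 3 of 6 KO libraries. In 4 WT libraries 1 peak of 1638 to 1719 b spanned the start, and it stood at percentiles 63.9 to 73.9. In KO, the peak was 377 b wide in CCR6+ replicate 1 (percentile 10.7), 1153 b in NKp46+ replicate 2 (73.4) and 1361 b in DN replicate 2 (82.6). None of these 3 KO peaks crossed the first start. The peak of WT NKp46+ replicate 1, −1313 to −577 b from that start, did not cross it either. WT DN replicate 1 had 2 peaks, at −1330 to −961 b and at −387 to +295 b. Crossing of the start was looked at after the values were seen.

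**Figure D5:**
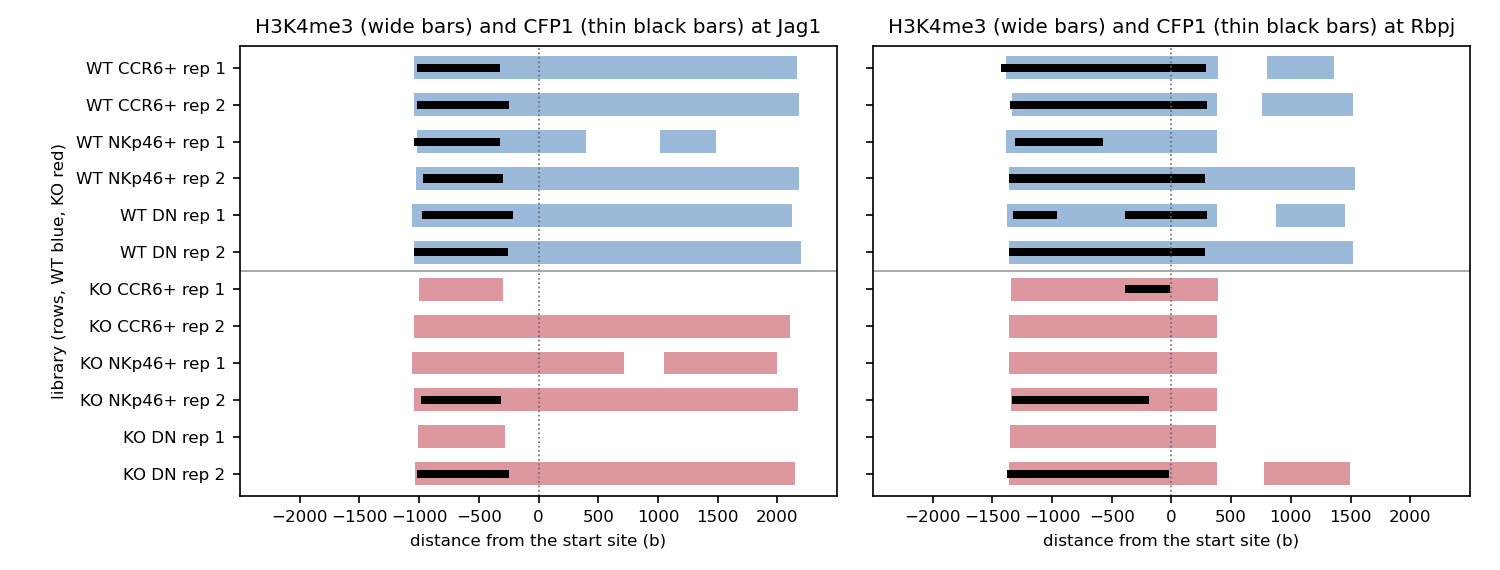
H3K4me3 peaks (wide pale bars, WT blue, KO red) and CFP1 peaks (thin black bars) around the start sites of Jag1 (left) and Rbpj (right), 1 row per genotype, subset and replicate number, with distance in bases from the start on the x axis. CFP1 bars are present in all 6 WT rows of both genes, in 2 KO rows of Jag1 and in 3 KO rows of Rbpj.

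The other genes had CFP1 in fewer libraries. Notch1 had it in 3 WT and 1 KO libraries, all of replicate 2, Notch2 in 4 and 2, Hes1 in 4 and 1, Dll4 in 2 and 1, Dll1 in 1 and 0, and Jag2 in 0 and 1. At Notch1 and Notch2 every library with CFP1 had a peak touching the start window, except KO NKp46+ replicate 2, where the Notch2 peak lay inside the gene. The CFP1 peaks of Hes1 lay within 1007 to 1689 b past its lower gene end. They touched only the window at its upper gene end, which was counted because the strand is not given.

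Jag1, Rbpj and Hes1 had CFP1 in 3 or more fewer KO than WT libraries, 3 of the 8 genes with any CFP1 peak (50.3% of all genes had one). None had 3 or more in excess in KO (0.0184% of all genes with a CFP1 peak). A deficit of 3 or more KO libraries was found at 4244 of the 10887 genes with a CFP1 peak (39.0%), so the share among the Notch genes was near that of these. A two-sided Fisher's exact test per gene over 8432 genes called 0 genes (0.0%) at a Benjamini-Hochberg adjusted p of 0.05, and 544 genes (6.45%) were under 0.05 before adjustment, all with fewer KO libraries. The smallest p this test can give, at 6 WT and 0 KO libraries, passes the adjustment only if many genes reach it. The 63 genes with that split were too few. The 0 is therefore not read as the absence of a CFP1 difference. For Jag1 the exact p was 0.0606 (adjusted 0.295), for Rbpj 0.182 (0.461) and for Hes1 0.242 (0.481). Notch1 (adjusted exact p = 0.729), Notch2 (0.729) and Dll4 (1.0) did not pass either. Jag2, Dll1, Notch3 and Dtx1 had too few libraries with a peak to be tested. With the strongest 714 peaks by p-value taken from each CFP1 list, only Rbpj of the Notch genes had enough such libraries. It did not pass, and the part of list length in the CFP1 counts was not tested.

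The test depended on 2 KO libraries. Without KO DN replicate 2 it called 389 genes, none of these 10 among them, with an adjusted exact p of 0.0672 for Jag1. Both KO NKp46+ and KO DN of replicate 2 were then left out, picked after their list lengths were seen. The test then called 1140 genes. Jag1 was among them (adjusted exact p = 0.0328), while Rbpj (0.119) and Hes1 (0.15) were not. The 2 libraries left out were the only KO libraries with the CFP1 peak of Jag1. Its count of 0 of 4 KO libraries, against 6 of 6 WT, was therefore set by that choice, and nothing is read from it.

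The overlap of both marks was counted peak by peak. In WT, 30 of 31 CFP1 peaks (96.8%) overlapped an H3K4me3 peak of the same genotype and subset, against 88.2% of all WT CFP1 peaks. In KO the figures were 12 of 13 (92.3%) and 82.5%. Since the members were selected on H3K4me3, their higher shares are partly set by that choice and nothing is read from them. The peak without H3K4me3 in each genotype was the one upstream of Dll4 in DN cells.

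The 3 subsets were compared next by the bases of H3K4me3 in the gene plus 10 kb. Genotype, not subset, was the contrast on which the members were selected, although the peaks summed here are the same ones. With limma over 13532 genes on log2(covered bases + 100 b), CCR6+ against NKp46+ called 6 genes (0.0443%), CCR6+ against DN 7 (0.0517%) and NKp46+ against DN 1 (0.00739%). None of the 10 Notch genes was called in any of the 3 contrasts, and their smallest adjusted limma p was 0.657.

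Dtx1 had the smallest p of the NKp46+ against DN contrast among the Notch genes, with 0.90 less on the log2 scale in NKp46+ (difference −0.90, SE 0.27, limma adjusted p = 0.695). Its covered bases there were 1580 and 2400 in WT and 958 and 2789 in KO NKp46+ lists. In DN lists they were 3324 and 5704 in WT and 1573 and 4167 in KO. NKp46+ was below DN in each of the 4 pairs of the same genotype and replicate number, and the 2 subsets overlapped in KO but not in WT. Within 1 kb of the start the values lay closer together. They were 1249 and 1051 in WT and 958 and 1194 in KO NKp46+ lists. In DN lists they were 1280 and 1181 in WT and 1096 and 1279 in KO. The Dtx1 peaks further inside the gene were weak, at percentile 12.3 or lower.

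For Rbpj the CCR6+ minus DN difference was −0.31 on the log2 scale (SE 0.09, limma adjusted p = 0.657). For Dll4 the CCR6+ minus NKp46+ difference was 1.85 (SE 0.73, limma adjusted p = 1). Dll4 had 580 and 1748 covered bases in WT CCR6+ lists and 0 in both WT NKp46+ lists. In KO the values were 1749 and 2921 in CCR6+ and 1598 and 2569 in NKp46+ lists, which overlapped. CCR6+ was above NKp46+ in each of the 4 pairs of the same genotype and replicate number. Blocking on replicate number, limma gave a smallest adjusted p of 0.2 among the Notch genes, for Dtx1 in NKp46+ against DN.

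A wider list of 53 other Notch pathway genes gave a frame for the 10. H3K4me3 was listed at the start of 47 of them in at least 1 library and of 38 in all 12, against 56.7% and 44.4% of all genes. Notch4, Dll3, Dlk1, Rbpjl, Hes3 and Ptcra had no H3K4me3 start peak in any library. None had 3 or more fewer KO than WT libraries (0.611% of all genes with a start peak), and 2 had 3 or more in excess in KO (3.42% of all genes with a start peak). These were Neurl1a, an E3 ligase that acts on Notch ligands, with 0 WT and 4 KO libraries, and Hes5, a Notch target, with 1 and 4.

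CFP1 was listed in the gene plus 10 kb of 39 of these 53 genes, and 14 of them had 3 or more fewer KO libraries, against 0 with 3 or more in excess. That is 35.9% of the 39 genes, against 39.0% of all genes with a CFP1 peak, and the median difference was −2 libraries in both. Among the proteases that cut the receptor, WT and KO counts were 6 and 3 for Adam10, 5 and 2 for Adam17 and 6 and 3 for Psen2. Psenen, another γ-secretase subunit, had 6 and 3 at the start window and 6 and 4 in the gene plus 10 kb. Among the enzymes that put sugars on Notch, Pofut1 had 6 and 1 and Poglut1 6 and 2, while Lfng had 4 and 3, and Mfng and Rfng had 0 and 0. No Poglut1 peak lay at its start window, where Adam17 had only 2 and 0.

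Counts were 6 and 3 for Numb, an inhibitor of Notch, and 4 and 1 for Dtx3l, an E3 ligase. Among nuclear cofactors they were 6 and 2 for Maml3, 5 and 2 for Spen, 5 and 2 for Ncor1 and 6 and 3 for Ep300. At the start window, Maml3 had 2 and 0 and Spen 1 and 0. The target Nrarp had 5 and 2. Hes3 had 6 and 1 in the gene plus 10 kb with none at its own start, so these peaks lay elsewhere in that window. None of these genes passed the Fisher's exact test after adjustment over all genes, with adjusted exact p-values from 0.235.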

How the data were processed

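Per the submitters' processing notes, fastp 0.19.7, Bowtie2 2.3.5.1, Picard, MACS2 2.2.7.1, ChIPseeker 1.28.3 and mm10 were used. What each tool did, with which settings and control library, is not given in the sources used here. For each library the authors deposited a peak list. Its deposited values per peak are a fold enrichment, which is a ratio, and −log10 p-values and q-values. The display score was not used. Lists hold no counts, so depth and its precision are unknown.

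The members and lists were chosen with earlier results of these data known. Genes are from RefSeq for GRCm38.p6, the assembly of mm10. Start sites came from its promoter table for 17273 genes, and the other 4354 used both gene ends. A gene had a peak where 1 b or more overlapped its window, which was the gene plus 10 kb or, at starts, 1 kb on either side. Peaks at shared windows count for each gene, so neighbours cannot be told apart.

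Two-sided Fisher's exact tests compared CFP1 presence in 6 WT and 6 KO libraries over genes present in 2 to 10 libraries. Limma 3.58.1 in R 4.3.3 compared subsets on log2(covered bases + 100 b), centred per library and with genotype as a term, over genes covered in 4 or more libraries. Both used Benjamini-Hochberg adjustment, a threshold of 0.05 and were tested on simulated data. Other computation used matplotlib 3.10.9, SciPy 1.17.1, pandas 2.3.3 and NumPy 2.4.6 in Python 3.11.15. Some genes that meet the naming rule, and some label details, are not reported here. Named genes are the 10 members, the pathway genes whose presence differed by 3 or more libraries between genotypes, and the 5 genes most like Jag2. The 6 pathway genes with no H3K4me3 start peak, the genes Lfng, Mfng and Rfng, and the marker genes were named after their values were seen.

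Replicate numbers came from the sample titles. H3K4me3 deviations of libraries with the same number correlated at 0.25 to 0.66 over all 6 pairs of groups within a genotype. A block on replicate number was therefore run as an alternative, and the main tests did not include it. Alternatives changed the window, overlap, threshold, test, filter, pseudocount, centring, block and libraries.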

Additional observations from a re-analysis of the deposited data

Results flagged for a closer look

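In 4 of 28 groups of 6 libraries checked, the gap between 1 library and the next was large against the range of the group. All but the first below are small counts of genes with ties, where a gap of 1 gene can be flagged. No rate of flags by chance is therefore given. At Jag1, WT NKp46+ replicate 1 had 1878 bases of H3K4me3 in the gene plus 10 kb, against 3188 to 3238 in the other WT libraries. CFP1 was listed at the start (either gene end for Hes1) of 6 of the 10 genes in KO DN replicate 2, against 0 to 2 in the other KO libraries. H3K4me3 was listed at the start of 8 genes in WT CCR6+ replicate 2, the one WT library with a Dll4 start peak, against 7 in each other WT library. It was listed at 7 genes in KO DN replicate 1, against 9 to 10 in the other KO libraries.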

How the results depend on the processing

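The count of genes called for CFP1 was 0 under every other alternative run, but 389 without KO DN replicate 2 and 1140 without both KO NKp46+ and KO DN of replicate 2 (0 to 389 over single libraries left out). With the replicate block, an exact sign-flip over 6 pairs, it was 0. The smallest p that 6 pairs can give passes the adjustment only if most genes reach it, so nothing is read from this 0. CFP1 deviations of the same number correlated between genotypes at 0.1 for CCR6+, 0.224 for NKp46+ and 0.231 for DN, which did not settle pairing for that antibody. For the subsets, the block gave 8, 8 and 1 genes for CCR6+ against NKp46+, CCR6+ against DN and NKp46+ against DN, and changed no other call. With genes covered in all 12 libraries all 3 counts were 0, for which the limma counts at an unadjusted p of 0.05 were 374, 572 and 606. With a 500 b pseudocount the first 2 counts were 2 and 3, with the start window the 3 were 2, 4 and 2, and with fold enrichment of 5 or more the last 2 were 4 and 2. Leaving out 1 library gave 0 to 9, 0 to 11 and 0 to 7. None of the 10 Notch genes was called in a subset contrast under these, and the cause of the differences was not tested. The difference in H3K4me3 members between genotypes, 0.83 genes in the gene plus 10 kb, was 0.5 to 1.13 with 1 library left out. Of the members' 30 subset differences, 22 had the other sign under at least 1 alternative, with limma adjusted p-values of 0.811 or more there. The single-gene subset differences given above for Dtx1, Rbpj and Dll4 kept their sign. The Dtx1 difference in CCR6+ minus DN, not given above, reversed, and among CFP1 counts Dll4 did. CFP1 at Dll4 was in 16.7 percentage points more KO than WT libraries with fold enrichment of 5 or more (0 WT, 1 KO), and that Dtx1 difference was 0.049 on the log2 scale at the start window, against −0.71 over the gene plus 10 kb. Peaks near the listing threshold depend on depth, which the lists do not give.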

Other observations

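Away from the gene starts (both gene ends for Hes1), CFP1 was listed at 5 sites of these genes, a set singled out after its values were seen. All 5 lay inside an H3K4me3 site of the same gene, and all 7 library calls came from replicate 2. They were at Notch1 (chr2:26483223-26483735, 1 KO library), Notch2 (chr3:98027137-98028142, 2 WT and 1 KO), Jag2 (chr12:112917246-112918062, 1 KO), Dll4 (chr2:119337641-119338042, 1 WT) and Rbpj (chr5:53566251-53566624, 1 KO). The H3K4me3 sites that held them were listed in 5 WT and 5 KO, 4 and 4, 2 and 4, 4 and 6, and 6 and 5 libraries, in that order.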
